A study of Mus musculus with 4 samples.

Results

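Cytosolic ribosomal proteins are the protein parts of the ribosome that translates nuclear mRNA. Their transcripts were examined here in mouse liver as the genes whose platform symbol follows the names of the large subunit proteins (Rpl), the small subunit proteins (Rps), the stalk proteins (Rplp) or Rpsa. Kinases, pseudogenes and probe sets with several gene symbols were left out, and each gene was read from its brightest probe set. This gave 46 of the 18193 genes on the array, 24 of the large and 22 of the small subunit. A filter on dim genes kept 41 of the 46 (21 large, 20 small), and in all 41 the mean of each group lay above it, so that none passed through the treated group alone.

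A ribosome joins a small subunit, which reads the mRNA, and a large subunit, which forms peptide bonds. Most of these proteins are present in equal amounts, and hepatocytes, which export most plasma proteins, carry many ribosomes. Most of these mRNAs begin with a cytosine and a run of pyrimidines at the cap, the 5' terminal oligopyrimidine (TOP) motif, through which mTOR signalling sets their translation, so that mRNA level and protein output need not move together.

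All mice carried floxed Met (labelled METfl/fl and Metff/ff) with a tamoxifen-inducible Cre (TamCre+/+, or ERCre+/+), controls included, and their ages are not given in the labels. The treated group, labelled delta MET + EGFRi, received tamoxifen in corn oil on 5 days to delete exon 16 of the hepatocyte growth factor receptor gene. After 4 days of rest, canertinib, which inhibits the EGF receptor (Egfr), was mixed into the diet, aimed at 80 mg/kg/day. Control littermates received corn oil only, with neither tamoxifen nor canertinib, so that deletion, tamoxifen, canertinib and food intake cannot be told apart. Livers were taken at day 7 and day 10 of canertinib, and each Affymetrix array held pooled liver RNA of 1 group at 1 day. There were thus 2 control and 2 treated arrays, the animals per pool are not given, and no value carries the spread between animals. The labels call the inhibition systemic and name no promoter for the Cre, and the RNA is of liver tissue, in which fewer cells of a type and less RNA per cell cannot be told apart.

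Signals are linear intensity values whose trimmed mean was 500 on each array, and the median signal ranged from 210.5 to 223.9. Met was not lower in treated livers: its signal was 975.5 and 1271 in control and 2433 and 2829 in treated livers at day 7 and day 10 (limma adjusted p = 0.103). Where its probes lie relative to the deleted exon was not analysed here, so that this does not check the deletion. Egfr gave 5664 and 9707 in control and 6686 and 7720 in treated livers. The hepatocyte markers were present on every array, with albumin between 71295 and 78532.

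The question was how ribosomal protein mRNAs differed between treated and control livers at each day. They were higher in treated livers almost throughout, mostly by less than 1.5-fold. The median log2 difference (treated minus control) over the large subunit was 0.51 at day 7 and 0.28 at day 10, or 1.42-fold and 1.21-fold. Over the small subunit it was 0.42 and 0.39, or 1.34-fold and 1.31-fold. Over all 11993 kept genes the medians were -0.06 and 0.01. At day 7, 19 of 21 large and 16 of 20 small subunit genes were higher, against 45.1% of all kept genes (54.9% were lower). At day 10 it was 21 of 21 and 18 of 20, against 50.6% (49.4% were lower). Each day sets 1 array against 1 array, so that these daily values have no test.

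**Figure D1:**
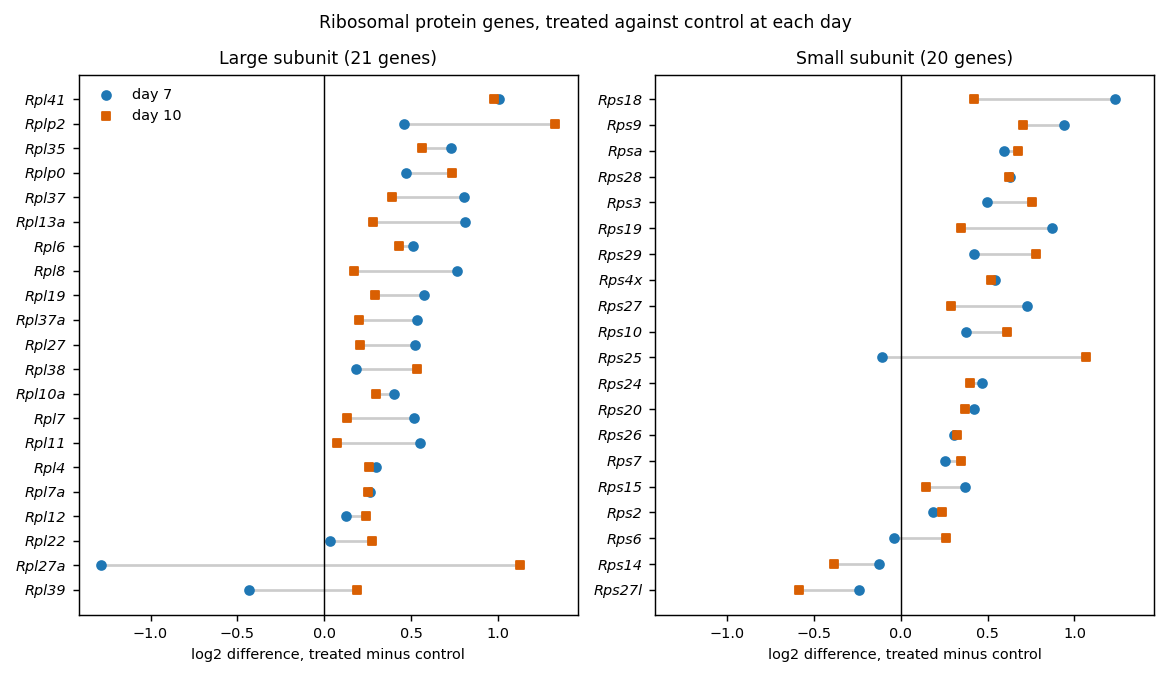
Log2 difference between the treated and the control array at day 7 (circles) and day 10 (squares) for each kept ribosomal protein gene, ordered by the mean of both days. In the large subunit 19 of 21 genes and in the small subunit 16 of 20 lie right of 0 at both days, while Rps14 and Rps27l lie left of it at both.

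With both days together, 35 of 41 genes had both treated arrays above both control arrays, where 20.3% of all kept genes did. Both treated arrays lay below both controls in 2 genes, Rps14 and Rps27l, against 24.1% of all kept genes. In the remaining 4 (Rpl27a, Rpl39, Rps25 and Rps6) the groups overlapped. Most members are bright, and among the 908 kept genes with a mean log2 signal of at least 12 the shares were 27.3% above and 30.9% below. Of the 35 members that bright, 33 lay above and 2 below. The direction of both subunit medians at both days was the same under quantile normalization, equal array medians and cyclic loess, a scaling that removes differences tied to brightness. The count above was 31, 35 and 32 of 41 under these scalings, and Rps14 and Rps27l were the 2 below in each.

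No single member passed the test. In limma's fit over all kept genes, 0 of 41 had a Benjamini-Hochberg adjusted p under 0.05 (lowest 0.207), where 0.659% of all genes did. An unadjusted p under 0.05 was reached by 14 members, all higher in treated livers, against 5.93% of all kept genes that were higher and 6.15% that were lower at that p. Since a group's arrays differ in day, the spread in this fit holds any change between the days. With the day 7 treated array left out, the log2 differences of Rpl41, Rplp2 and Rps29 were 1.18, 1.12 and 0.73. With that of day 10 left out, those of Rps18 and Rps9 were 1.08 and 0.96. In those fits the spread came from the control arrays alone, so that no call is taken from them.

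**Figure D2:**
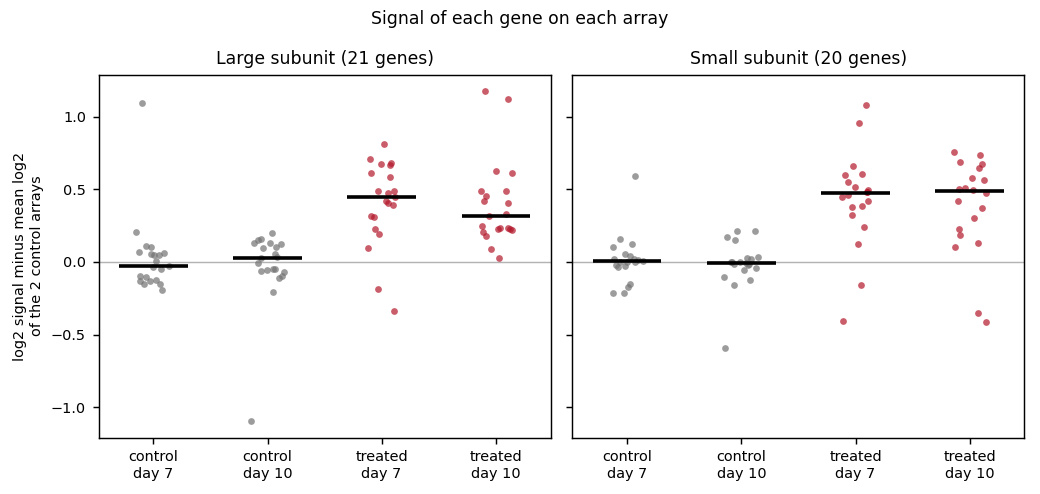
Log2 signal of each kept gene on each of the 4 arrays, relative to the mean of its 2 control arrays, with points for genes and bars for the median over genes. By this scaling the 2 control points of a gene always lie at equal distances on either side of 0. They are farthest from it for Rpl27a and Rps25. Most treated points lie above 0.

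Within a group, the day 10 minus day 7 log2 difference ran from -2.19 to 0.42 over the members in control and from -0.50 to 0.46 in treated livers. Its median size without regard to sign was 0.20 in control and 0.19 in treated livers in the large subunit. In the small subunit it was 0.07 and 0.05. In the large subunit the difference between groups at day 10, a median of 0.28, was thus not far above the difference between arrays of a group. Which day had the larger difference depended on the scaling. In the small subunit the medians at day 7 and day 10 were 0.42 and 0.39 as reported, but 0.25 and 0.46 after cyclic loess. A size rule of 1.5-fold was met by 5 large and 6 small subunit genes at day 7 (12.1% of all kept genes) and by 4 and 7 at day 10 (14.6%), so that most members were higher by less than 1.5-fold. Only Rpl27a at day 7 was at least 1.5-fold lower by this rule on that day, against 15.4% of all kept genes, and Rps27l was just short of it at day 10, against 13.5%.

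In the large subunit the largest mean difference was that of Rpl41, the smallest ribosomal protein, which bridges to the small subunit. Its signal was 14565 and 19109 in control livers at day 7 and day 10, and 29241 and 37688 in treated livers. Both treated values stand well above both controls, a 2.01-fold and 1.97-fold difference (limma log2 difference 0.99 ± 0.25 SE, adjusted p = 0.207, n = 2 arrays per group). Another probe set of Rpl41 gave 8205 and 10173 against 23331 and 22497, and a dim one, near the filter, gave 178.1 and 270.4 against 246.4 and 184.2.

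The stalk of the large subunit, built from Rplp0 and the acidic proteins Rplp1 and Rplp2, recruits translation factors. Rplp2 gave 7199 and 5413 in control and 9911 and 13604 in treated livers, 1.38-fold at day 7 and 2.51-fold at day 10 (adjusted p = 0.26). Rplp0, the stalk base and a common reference gene in quantitative PCR, gave 12453 and 10691 in control and 17290.4 and 17823 in treated livers. The groups did not overlap, and the log2 difference of Rplp0 was 0.61 ± 0.21 SE (adjusted p = 0.33, n = 2). Rplp1, read from a probe set that also names a predicted gene, gave 11932 and 13093 against 19937 and 25079. All 3 stalk genes were thus higher on both treated arrays.

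Rpl35, which lies by the exit tunnel for the nascent chain, gave 5981 and 6422 in control and 9904 and 9493 in treated livers (log2 difference 0.65, adjusted p = 0.283). Rpl37 gave 3534 and 4035 against 6180.2 and 5294. Rpl13a, known for a separate role in interferon-induced translational silencing, gave 14155 and 16873 against 24816 and 20456. In both of these genes the day 7 difference was the larger, at 0.81. Rpl6 gave 10688 and 11059 against 15213 and 14873, with nearly equal arrays inside each group. Rpl8 gave 5300.3 and 6515 against 8997 and 7331, and Rpl19 gave 9649 and 11557 against 14391 and 14139.9.

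At the low end, Rpl22, an RNA-binding protein of the large subunit, gave 11740.2 and 10846 in control and 12035 and 13147 in treated livers, 1.03-fold and 1.21-fold. Rpl12 gave 494.1 and 453.2 against 539.9 and 534.8 by a dim probe set. Brighter ones that also name predicted genes had larger differences. They gave 10152 and 8871 against 11640 and 13294, and 7985 and 7213 against 10182 and 12478. Rpl7a gave 21524 and 20077 against 25831 and 23951, so that a small difference of 1.20-fold and 1.19-fold was alike at both days. Rpl11, which with Rpl5 and 5S rRNA forms the particle that can bind Mdm2, gave 5552 and 6883 against 8126 and 7243. This is a log2 difference of 0.55, then 0.07. The other large subunit genes with non-overlapping groups (Rpl4, Rpl7, Rpl10a, Rpl27, Rpl37a and Rpl38) had differences from 0.13 to 0.53.

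In the small subunit Rps18, a protein of the head, had the largest mean difference. It gave 13729 and 16995 in control and 32249 and 22778 in treated livers, 2.35-fold at day 7 and 1.34-fold at day 10 (log2 difference 0.83 ± 0.26 SE, adjusted p = 0.29, n = 2). Further probe sets of Rps18 gave 12372 and 11868 against 20721 and 16371, and 8589 and 6751 against 14035 and 12707. Rps9, needed for accurate decoding, gave 5699 and 5568 against 10953 and 9080.2 (0.82 ± 0.21 SE, adjusted p = 0.209). A further probe set of Rps9 gave 2224 and 2687 against 3054 and 2628, which overlapped.

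Rpsa, a late-joining protein also known as the laminin receptor, gave 9523 and 9487 in control and 14399.8 and 15128 in treated livers. The arrays of a group differed little, and the fold was 1.51 and 1.59. Rps28 behaved alike at both days, at 20511 and 21280.3 against 31735 and 32769, and its 2 further probe sets were also higher on both treated arrays. Rps3, which lines the mRNA entry channel, gave 7325 and 7331 against 10323 and 12352. Rps29 gave 25360 and 23918 against 33916 and 40979. Rps19, the gene most often mutated in Diamond-Blackfan anaemia, gave 3490 and 4684 against 6381 and 5964. Rps4x gave 12379 and 12274 against 18061 and 17564.

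Smaller differences were seen for Rps2, at 30835 and 28612 against 35017 and 33739, and for Rps15, at 10413 and 10212 against 13474 and 11291. The other small subunit genes with both treated arrays higher (Rps7, Rps10, Rps20, Rps24, Rps26 and Rps27) had log2 differences from 0.25 to 0.73 over both days.

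Promoter sequences from RefSeq (GRCm38.p6, 250 bases before to 50 after the annotated start) were found for 40 of the 46 genes, 48 promoters in all. Those of the 6 genes with the largest mean differences and a single listed promoter are shown because they show how the start sites of genes that were higher together look. Each covers 100 bases before and 25 from the start onward, 5' to 3'. Capitals mark a run of at least 5 pyrimidines beginning with C within 5 bases of the start, and the ETS-type motif CCGGAAG on either strand.
Rpl41 (chr10:128549144-128549268, minus strand): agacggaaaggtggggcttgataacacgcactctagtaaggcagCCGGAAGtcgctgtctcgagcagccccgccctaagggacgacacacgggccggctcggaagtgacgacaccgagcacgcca
Rplp2 (chr7:141447551-141447675, plus strand): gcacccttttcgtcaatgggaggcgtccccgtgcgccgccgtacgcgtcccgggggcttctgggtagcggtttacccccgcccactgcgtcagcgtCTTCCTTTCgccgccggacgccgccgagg
Rps18 (chr17:33955641-33955765, minus strand): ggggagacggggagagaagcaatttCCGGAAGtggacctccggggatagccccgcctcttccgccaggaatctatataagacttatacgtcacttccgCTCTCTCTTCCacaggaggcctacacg
Rps9 (chr7:3703941-3704065, plus strand): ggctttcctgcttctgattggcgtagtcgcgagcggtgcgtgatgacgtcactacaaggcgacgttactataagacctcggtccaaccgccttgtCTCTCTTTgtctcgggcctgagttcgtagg
Rpl35 (chr2:39005107-39005231, minus strand): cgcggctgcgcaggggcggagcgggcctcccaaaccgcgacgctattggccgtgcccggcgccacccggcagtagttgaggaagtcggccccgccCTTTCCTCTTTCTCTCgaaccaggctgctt
Rpsa (chr9:120127666-120127790, plus strand): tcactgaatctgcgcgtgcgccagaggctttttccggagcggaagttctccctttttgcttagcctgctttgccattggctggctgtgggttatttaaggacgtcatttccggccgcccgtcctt

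A pyrimidine run at the start stood in 20 of the 48 member promoters (41.7%), against 18.3% of all 32851 promoters in the table. The motif CCGGAAG on either strand stood in 41.7% of member promoters against 8.86% of all, and ATGGCGG, the core bound by YY1, on either strand in 12.5% against 4.05%. Of the 36 kept members with a listed promoter, 18 had the run and 18 did not. Their medians were 0.34 and 0.31 with the run and 0.52 and 0.37 without it at day 7 and day 10, so that the members without the run were higher as well. A match here is a match of letters near an annotated start, and the part of the run in the difference was not tested.

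Rps27l stood apart from the other members. Rps27l is a near copy of Rps27 whose gene is a known target of p53. Its signal was 12738 and 16128 in control livers and 10789 and 10764 in treated livers, 1.18-fold lower at day 7 and about 1.5-fold lower at day 10 (log2 difference -0.41 ± 0.22 SE, adjusted p = 0.518, n = 2). Its 2 further probe sets gave 11049.8 and 13110 against 10169 and 10308, and 9280.1 and 10529.8 against 7418 and 6913. All 3 probe sets thus had both treated arrays below both controls. Rps27 itself gave 979.9 and 1313 in control and 1621 and 1601 in treated livers, which is higher on both treated arrays. A probe set shared by Rps27 and Rps27rt gave 5399 and 5366 against 7550 and 5087. It was higher at day 7 and slightly lower at day 10, so that its groups overlapped. This shared probe set was the brighter, but did not enter the wider count given below. The difference between the 2 paralogs was not tested.

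Both genes of the pair are shown at their start sites, marked in the same way. The longer pyrimidine run is that of Rps27, and the promoter of Rps27l is the first of those listed.
Rps27 (chr3:90213624-90213748, minus strand): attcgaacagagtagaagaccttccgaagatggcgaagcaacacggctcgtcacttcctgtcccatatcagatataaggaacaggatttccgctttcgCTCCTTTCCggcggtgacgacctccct
Rps27l (chr9:66945986-66946110, plus strand): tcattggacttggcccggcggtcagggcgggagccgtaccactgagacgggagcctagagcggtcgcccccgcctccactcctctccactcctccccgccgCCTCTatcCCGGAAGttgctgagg

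Rps14, a protein of the small subunit platform, was the other exception, and its probe sets disagreed. The brightest gave 15827 and 16556 in control and 14535 and 12705 in treated livers, 1.09-fold and 1.30-fold lower. The other gave 10261 and 10720.1 against 16537 and 10969.6, with both treated arrays above both controls. No direction is therefore given for Rps14.

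**Figure D3:**
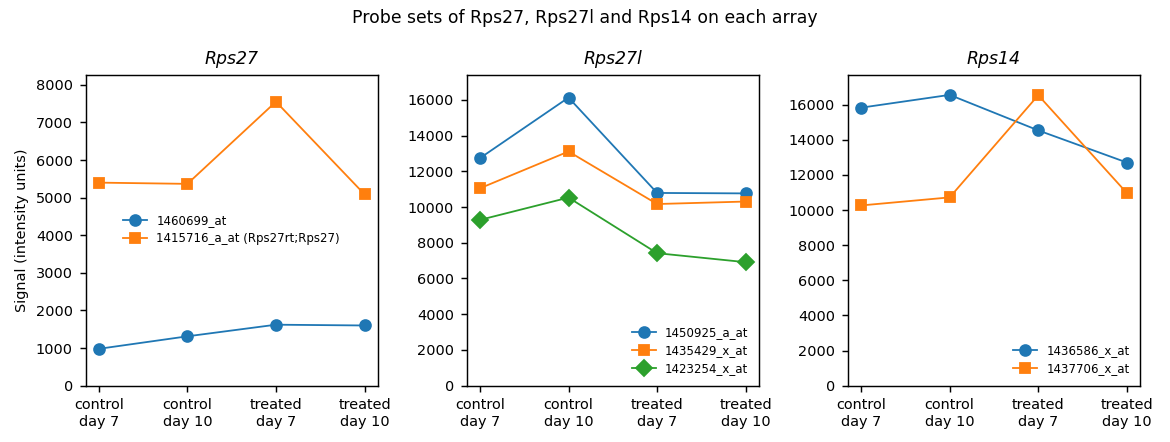
Signal (intensity units, axes from 0) of the probe sets of Rps27, Rps27l and Rps14 above the filter on the 4 arrays, with lines joining the arrays of a probe set. All 3 probe sets of Rps27l are lower on both treated arrays, while the probe sets of Rps27 and of Rps14 do not agree among themselves.

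The 4 members with overlapping groups were read from probe sets with signals between 206.8 and 1712, above the filter. Rps6, the protein phosphorylated by S6 kinase, gave 820 and 656.5 in control and 798.4 and 786.7 in treated livers. Rpl39 gave 1188 and 1035 against 879.4 and 1178. Rpl27a gave 1712 and 374.9 against 703.6 and 817.7, a low day 10 control that turns its difference from -1.28 at day 7 to 1.13 at day 10. Rps25 gave 469.5 and 206.8 against 435.4 and 432.7. Brighter probe sets of these genes carry the names of pseudogenes or predicted genes beside the gene and so fell outside the rule. By them Rpl27a gave 10661 and 9978 against 17700.1 and 15459, Rps25 gave 7524 and 8532 against 12048 and 11211, and Rpl39 gave 35463 and 32837 against 40089 and 44107. These 3 were higher on both treated arrays. Rps6 gave 34744 and 33752 against 39812 and 31930, which overlapped by that probe set too. Further such probe sets of Rps6 disagreed. A bright set gave 22707 and 23189 against 25967 and 28421, higher on both treated arrays. A dimmer set gave 979.5 and 1151 against 790.4 and 730.5, lower on both.

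This wider reading was chosen after the values were seen. Probe sets naming 1 ribosomal protein gene plus predicted genes or pseudogenes added 24 genes, all kept, each read from its brightest such probe set. Of the 24 genes, 23 had both treated arrays above both controls, where 20.3% of all kept genes did, and 1, Rpl17, overlapped. Among them Rps23 gave 11406 and 13173 in control and 20619 and 21844 in treated livers, Rpl3 11590 and 10158 against 16971 and 14660.3, and Rpl5 14966 and 16536 against 25103 and 18380.4. Rpl10, at the subunit interface, gave 29310.2 and 27140.6 against 29718 and 38604 by its brightest such probe set. By that set nearly all of the difference was at day 10. Another such probe set of Rpl10 gave 19883 and 19394 against 23427 and 22324, with similar log2 differences of 0.24 and 0.20. With the brightest probe set of either kind, 70 genes were measured and 67 kept. Of these, 62 lay above (39 of 41 large and 23 of 26 small), 2 below (Rps14 and Rps27l) and 3 overlapped (Rpl14, Rpl17 and Rps6). The medians were 0.47 at day 7 and 0.37 at day 10. Such probe sets share arrays with the rest and can bind several transcripts, including those of processed copies. Taken singly they were more mixed. Of 110 probe sets that name a ribosomal protein gene beside other symbols, 96 passed the filter, and of these 70 lay above and 4 below.

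Other probe sets of the members gave a more mixed picture. Beside the brightest, 54 single-symbol probe sets exist for these genes, 42 of them above the filter. Both treated arrays lay above both controls in 26 and below in 5. Those below were the 2 of Rps27l and 1 each of Rpl13a, Rps3 and Rps24. The mean of each gene's probe sets gave 29 of 41 genes above and 1 below. Probe sets with the suffix _s_at or _x_at can bind more than 1 transcript, and without them 27 of 33 genes lay above.

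The 5 members under the filter were Rpl14, Rpl3l, Rpl39l, Rps16 and Rps4l. Rpl3l, a muscle paralog of Rpl3, gave 109.6 and 87.9 in control and 73.1 and 179.5 in treated livers. Rpl39l, a testis paralog of Rpl39, lay under the floor of 64.8 on all 4 arrays, at 35.9 and 24.3 against 27.6 and 11.6. Rps4l was near or under the floor on 3 arrays (65, 63.1 and 59.5) and gave 358.9 on the day 7 treated array alone. The single-symbol probe sets of Rps16 (5.6 to 11.5) and Rpl14 (11.1 to 103.3) were dim, while wider ones gave 26951 and 25398 against 30534 and 32992 for Rps16, and 6153 and 8773 against 8782 and 7323 for Rpl14. Outside the name pattern, the paralog Rpl22l1 gave 5105 and 2727 in control and 4901 and 8248 in treated livers, so that its groups overlapped. Rpl7l1 gave 1001 and 1294 against 1091 and 1272. Fau, which encodes a ubiquitin-like protein fused to a small subunit protein, gave 13112 and 14331 against 18949.9 and 9211, higher at day 7 and lower at day 10. A probe set shared by Rpl36a and Rpl36al gave 2695 and 2782 against 3740 and 3511. A brighter one that also names Dnaaf2 gave 9326 and 9810 against 8114 and 11723, so that its groups overlapped.

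**Figure D4:**
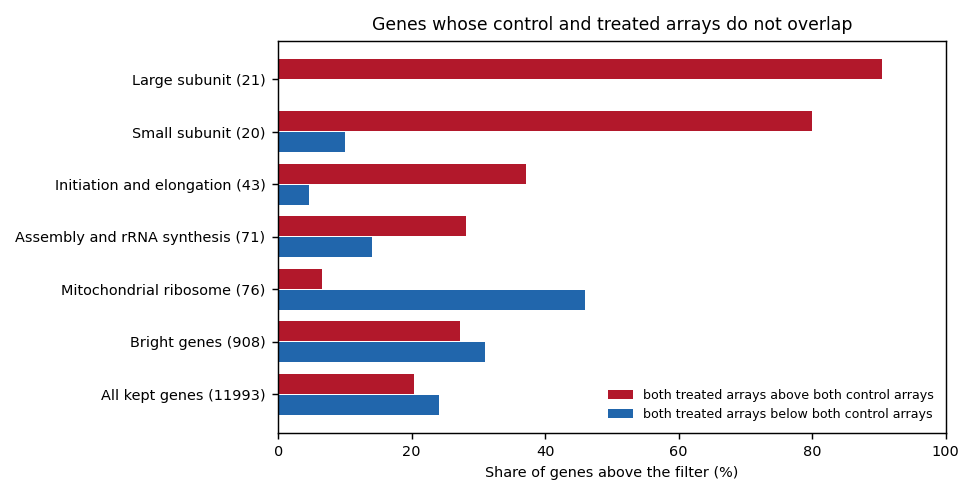
Share of kept genes (in percent) with both treated arrays above (red) or below (blue) both control arrays, for the 2 ribosomal subunits, related gene groups, bright genes and all kept genes, with the number of genes in parentheses. The share above is 90.5% in the large and 80% in the small subunit against 20.3% of all kept genes. The mitochondrial ribosome has 46.1% below, against 24.1% of all kept genes.

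Related groups are given for comparison, with no test of the difference between groups. Of 76 mitochondrial ribosomal protein genes, which build the separate ribosome of mitochondria, 5 lay above (6.58%, against 20.3% of all kept genes) and 35 below (46.1%, against 24.1%). Their medians were -0.17 and -0.21, negative under each scaling. Of 43 initiation and elongation factor genes 16 lay above (37.2%, against 20.3%) and 2 below (4.65%, against 24.1%), with medians of 0.24 and 0.06. In each of these groups 0 genes passed limma's adjusted test, with unadjusted p under 0.05 in 1 higher and 7 lower, and in 3 higher and 0 lower genes.

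Among 22 other genes whose mRNAs carry a TOP motif (such as elongation factors), 21 were higher at day 7 and 8 at day 10. Of all kept genes 45.1% and 50.6% were, and the medians of the 22 genes were 0.55 and -0.08. Both treated arrays lay above both controls in 7 (31.8%, against 20.3% of all kept genes) and below in 0 (against 24.1%). In limma's adjusted test 0 passed (2 higher at an unadjusted p under 0.05). Eef2, which moves the ribosome along the mRNA, gave 19353 and 20324 against 38289 and 26811, with a log2 difference of 0.98 at day 7 and 0.40 at day 10 (adjusted p = 0.353). Leaving out the day 10 treated array gave a log2 difference of 0.95. Eef1d gave 1330.3 and 2142 against 3132 and 3456, and Hnrnpa1, an RNA-binding protein, 1099 and 892 against 1793 and 1270.2. Eif3k was lower at both days, at -0.24 and -0.07. Gas5, a noncoding host of small nucleolar RNAs, was higher at day 7 (0.84) and lower at day 10 (-1.77). Many of the 22 genes, such as Eef2 and Eef1d, are also counted among the initiation and elongation factors. A few others are also counted among the assembly or the ribosome-associated genes, so that these groups are not separate.

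Ribosome assembly and rRNA synthesis genes numbered 71 kept, with medians of 0.15 and 0.01, 20 above (28.2%, against 20.3% of all kept genes) and 10 below (14.1%, against 24.1%), and 0 passing limma's adjusted test (2 higher and 2 lower at an unadjusted p under 0.05). Eif6, which keeps new large subunits from joining small ones, gave 1654 and 1864 in control and 3137 and 3178 in treated livers (adjusted p = 0.178). Gnl2 and Rrs1, assembly factors of the large subunit, had log2 differences of 0.63 and 0.54. Ubtf, which drives RNA polymerase I, was on the other side, at 2231 and 2276 against 1459.9 and 1466 (log2 difference -0.62, adjusted p = 0.296). The small subunit assembly factor Pno1 had -0.47, and Nle1, which acts on the large subunit, -1.38.

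Of 21 kept genes of mTOR and MYC control 4 lay above and 3 below (19.0% and 14.3%, both under the 20.3% and 24.1% of all kept genes), and 0 passed limma's adjusted test (2 higher and 1 lower at an unadjusted p under 0.05). Ddit4, an inhibitor of mTOR complex 1, gave 220.8 and 290.8 against 1564 and 675.3, 7.08-fold and 2.32-fold (adjusted p = 0.142). Its log2 difference was 2.02, or 2.63 if the day 10 treated array is left out. The translation repressor Eif4ebp1 gave 2389 and 1930.3 against 4112 and 3649 (adjusted p = 0.212). Sesn3 gave 1275 and 1232 against 459.3 and 760.7 (adjusted p = 0.226). Its log2 difference was -1.08, or -1.45 if the day 10 treated array is left out. Sesn1 and Sesn2 went the other way, and both lay above. Sesn1 gave 594.1 and 448.7 against 1079 and 622.8, and Sesn2 532.5 and 505.9 against 822.9 and 621.7. The MYC antagonist Mxd1 gave 326.8 and 382.4 against 192.1 and 212.4. Myc, whose mean lay under the filter, gave 52.8 and 113.1 in control and 345.4 and 161.8 in treated livers. Its day 7 control value was under the floor, and it was not tested.

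Of 8 genes around the 5S particle and p53, 4 lay above (50%, against 20.3% of all kept genes) and 2 below (25%, against 24.1%). In limma's adjusted test 0 passed (1 higher and 2 lower at an unadjusted p under 0.05). The p53 target Cdkn1a, which halts the cell cycle, gave 350.4 and 513.5 against 659.7 and 1435 (adjusted p = 0.33). Its log2 difference was 1.20, or 1.76 if the day 7 treated array is left out. Mdm2, which also lay above, gave 924.3 and 1299 against 1558 and 1525. Sesn1 and Rrp8 lay above as well, with log2 differences of 0.67 and 0.34. The p53 targets Ccng1 and Bbc3 were lower, at 1041 and 1202 against 636.3 and 688.2, and at 728.6 and 702.6 against 468.5 and 392.1. Among 13 kept genes of the integrated stress response, which lowers initiation, 5 lay above (38.5%, against 20.3%) and 1 below (7.69%, against 24.1%). Of these, 0 passed limma's adjusted test (2 higher and 1 lower at an unadjusted p under 0.05). The kinase gene Eif2ak3 gave 608.7 and 529.2 against 1054 and 1123, and Asns gave 3339 and 4123 against 2684 and 2418.

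Among 14 ribosome-associated genes 4 lay above (28.6%, against 20.3% of all kept genes) and 2 below (14.3%, against 24.1%). In limma's adjusted test 0 passed (1 higher at an unadjusted p under 0.05). Serbp1, which binds idle ribosomes, gave 4720.4 and 5479 against 8771 and 6909, but -0.73 when probe sets that can bind several transcripts were left out.

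For the counts of cell type markers that follow, the shares over all kept genes were 20.3% above and 24.1% below. The marker counts, unlike these shares, also take in measured markers under the filter. Among kept markers alone, 6 of 6 general leukocyte markers lay above. So did 3 of 7 B and plasma cell markers (2 below) and 2 of 9 stellate cell and fibroblast markers (2 below). Limma's adjusted test called 0.375% of all kept genes higher, and 45.1% and 50.6% were higher at day 7 and day 10. Of 13 macrophage and Kupffer cell markers 11 lay above and 3 rose in limma's test. Their summed signal was 24826 and 14005 in control and 52962 and 52952 in treated livers. All 7 general leukocyte markers lay above (1 rose, Tyrobp), with sums of 4196 and 2801 against 8281 and 8158. Of 10 measured neutrophil markers 5 lay above (3 rose), with sums of 3588 and 3974 against 10808 and 13812, and Camp was at the floor on all 4 arrays. Of 8 measured B and plasma cell markers 4 lay above (1 rose, Jchain) and 2, Cd79b and Ms4a1, below. Their sums were 6353 and 4213 against 14262 and 13205, with Ighm giving 2716 and 1017 against 9578 and 7611. Of 10 sinusoidal endothelial markers 2 lay above and 0 below, 3 were higher at day 7 and 9 at day 10, and their sums were 12094 and 10572 against 10966 and 16440.2. Stellate cell and fibroblast markers summed to 14185 and 16114 against 20183 and 20533, with 3 of 11 above and 3 below. Cholangiocyte and progenitor markers summed to 1189 and 1301 against 1290 and 1980 (1 of 6 above, 0 below). Erythroid markers summed to 7772 and 6729 against 7619 and 7824 (2 of 6 above, 1 below). T and NK cell markers summed to 3499 and 3154 against 3381 and 4098 (3 of 9 above, 3 below). Cell cycle markers summed to 3761 and 3834 against 3661 and 2960.4 (0 of 9 above, 3 below). Hepatocyte markers summed to 284303 and 272850 against 330272 and 269949. Of the 7 measured, 2 (Apob and Hnf4a) lay above and 0 below, and 6 were higher at day 7 and 3 at day 10. The part of these cells in the ribosomal protein difference was not tested.

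A measure of RNA integrity, the ratio of the 3' to the 5' control probe set, was 0.977 and 1.14 in control and 1.22 and 1.09 in treated livers for Gapdh. For beta-actin it was 1.81 and 2.59 against 2.28 and 1.98, so that the groups overlapped for both. Its part in the difference was not tested.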

How the data were processed

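The deposited values are linear intensity values per probe set of 4 Affymetrix mouse arrays of pooled liver RNA, made with MAS5 per the submitters' processing notes. The sources used here give no version. After 64 control probe sets were left out, 34945 of 45037 carry a single gene symbol in the platform annotation. Signals under the 25th percentile (64.8) were raised to that value and log2-transformed, with the brightest probe set standing for each of 18193 genes. The filter kept genes whose mean exceeded the probe set median (7.67 on the log2 scale). Groups were compared over 2 against 2 arrays with limma 3.58.1 in R 4.3.3 (intensity trend, two-sided, 2 residual degrees of freedom, Benjamini-Hochberg over all kept genes). Signals are quoted in the order day 7, day 10, control before treated. "Above" and "below" mean that both treated arrays lay on that side of both controls. The members and gene lists were chosen with earlier results of these data known. Named were, per subunit, the 8 largest and 5 smallest mean differences, a fixed set of core genes and paralogs, members under the filter, and, per list, up to 3 highest and 3 lowest genes by the smaller daily difference, taken only where day 7 and day 10 went the same way. Fau, Gas5, Myc, Mdm2, Apob, Hnf4a, Ighm, Cd79b and Ms4a1 were named after their values were seen. The limma step was tested on simulated data. Days pair the arrays of the groups per the labels, and day was tried as a replicate block. Other alternatives were scalings, floors, filters, probe set choices, size rules and leaving out each array. Figures were drawn with matplotlib 3.10.9.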

Additional observations from a re-analysis of the deposited data

Results flagged for a closer look

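Rpl27a had a log2 difference of -1.28 at day 7 and 1.13 at day 10 by its single-symbol probe set, past 1.5-fold in opposite directions, and the difference between the days was not tested. Among probe sets that name 1 ribosomal protein gene together with predicted genes or pseudogenes, which the comparison did not use, 23 further genes had both treated arrays above both control arrays. That is 23 of 24 genes by the brightest such probe set of each, where 20.3% of all kept genes lay above.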

How the results depend on the processing

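Both subunit medians stayed above 0 at both days under every scaling, floor, filter and probe set choice run. The small subunit medians at day 7 and day 10 were 0.26 and 0.43 with quantile normalization, 0.51 and 0.33 with equal array medians and 0.25 and 0.46 with cyclic loess. They were 0.38 and 0.35 without _s_at and _x_at probe sets, and at day 10 0.36 with no filter and 0.25 with the mean of probe sets. At day 7 and day 10, a size rule of 25% higher was met by 14 and 8 large and 13 and 13 small subunit genes, and a 2-fold rule by 1 and 2 large and 1 and 1 small. The 1.5-fold rule at day 7 was met by 11 large subunit genes with equal medians and 2 without _s_at and _x_at probe sets, and at day 10 by 2 large and 2 small with the mean of probe sets, where 1 member lay below. In readings added after the data were seen, 58 of 65 genes lay above when the further genes joined the members, and 62 of 67 with the brightest probe set of either kind. Genes called by limma numbered 79 as reported, 162 at an adjusted p under 0.1, 42 with the mean of probe sets, 42 without the intensity trend and 0 with no filter. With day as a replicate block they numbered 47, and the block called 0 members. Leaving out each array in turn gave 24 to 466 genes, 0 to 3 members and 0 to 4 pathway genes. Without control day 7 they numbered 26, without control day 10 24, without treated day 7 466 and without treated day 10 330. With 1 array left in a group, that array is assumed to vary like the other group. With the mean of probe sets the log2 difference turned sign for Abce1 (-0.025), Eif2b5 (-0.0050), Eif3c (0.23), Nacc1 (0.28), Rpl7l1 (-0.11) and Rps14 (0.054), and without _s_at and _x_at probe sets for Serbp1 (-0.73). Leaving out arrays turned Rpl27a (-1.17 to 1.02), Rpl39 (-0.33 to 0.088), Rps6 (-0.049 to 0.27), Rpl7l1 (-0.14 to 0.24), Abce1 (-0.039 to 0.20), Mxi1 (-0.79 to 0.22), Eef1e1 (-0.92 to 0.31) and Gspt1 (-0.42 to 0.038). The cause of these moves was not tested.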
